A study of Mus musculus with 4 samples.

Results

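Cytosolic ribosomal protein genes were followed in cortex of APPswe/PS1ΔE9 mice. The genes were taken by symbol: every protein-coding gene whose name begins with Rpl, Rps or Rplp and a number, leaving out the S6 kinases and named pseudogenes. The deposited symbols carry the names of pseudogenes for most of these transcripts, and the pattern applied to them literally would find only 2 genes. It was therefore applied to the GENCODE M21 symbol of each transcript identifier, which gave 81 of the 15387 protein-coding genes counted. The 81 are 48 genes of the large (60S) subunit, 32 of the small (40S) subunit, and Rps19bp1, which encodes a protein named for binding Rps19 and is not itself a ribosomal protein. Rps4l, deposited as protein coding, is a transcribed processed pseudogene in GENCODE M21.

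The samples were cortex of 2 male APPswe/PS1ΔE9 double transgenic mice (APP; libraries APP.3 and APP.4) and 2 male wild-type C57BL/6 mice (C57BL/6J in the study's methods; WT; libraries WT.1 and WT.2), all 12 months old. The transgenic line carries an APP transgene with the Swedish mutation and human presenilin 1 with an exon deleted (ΔE9), and both transgenes are driven by the mouse prion protein promoter. Ribosomal RNA was depleted from total RNA of whole cortex, which left the mRNAs of the ribosomal proteins to be counted. The libraries held 28525117 to 43881196 counts, and each member had between 27 and 14211 counts in a library.

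A cytosolic ribosome pairs a small subunit, which reads the mRNA, with a large subunit, which joins amino acids. Cells make the proteins of both subunits in matched amounts. Their mRNAs typically begin with a C and a run of pyrimidines, the 5′ terminal oligopyrimidine (TOP) tract, through which the mTORC1 kinase and the RNA-binding protein Larp1 control their translation and stability together. Each gene has also left many processed pseudogenes in the mouse genome, copies of the spliced mRNA that are close to it in sequence. In brain, ribosomal protein mRNAs are found in cell bodies and in neuronal and glial processes.

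The TOP tract is shown first because it is the sequence known as typical of these genes and the symbol rule did not use it. RefSeq windows (GRCm38.p6) were matched for 60 of the 81 genes. A C exactly at the annotated start followed by at least 4 bases that are each C or T, read on the gene's own strand, was found in 13 of the 60 (21.7%). The same was found in 3.0% of the 11679 coding genes of the comparison with a window and in 0 of 68 mitochondrial ribosomal protein genes. A start of this kind within 5 bases of the annotated one was found in 46.7% of the 60, 25.0% of the mitochondrial set and 23.8% of all coding genes. The windows below run from 10 bases before the start to 20 bases into the transcript, 5′ to 3′, with the tract in capitals. The first 5 have the longest tracts, and the last 3 are Rpl23 and the pair of genes whose fold change was negative, none of which has a tract exactly at the annotated start.
Rpl15, chr14:18270967-18270996, minus strand: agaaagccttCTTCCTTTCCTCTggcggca
Rpl35, chr2:39005112-39005141, minus strand: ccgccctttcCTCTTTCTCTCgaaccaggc
Rps10, chr17:27635225-27635254, minus strand: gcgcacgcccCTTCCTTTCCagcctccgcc
Rps18, chr17:33955646-33955675, minus strand: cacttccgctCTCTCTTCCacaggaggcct
Rps6, chr4:86857348-86857377, minus strand: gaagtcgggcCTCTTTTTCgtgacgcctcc
Rpl23, chr11:97782420-97782449, minus strand: gtccggtcacgtggctgagtgggcggggcc
Rpl7l1, chr17:46782637-46782666, minus strand: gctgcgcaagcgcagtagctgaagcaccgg
Rps19bp1, chr15:80264287-80264316, minus strand: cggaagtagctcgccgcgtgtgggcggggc
The median log2 fold change (APP over WT) was 0.22 for the 13 genes with a tract at the annotated start, which ran from 0.08 to 0.29. It was 0.23 for the 47 without one exactly there, which ran from -0.27 to 0.40. Some of the 47 have a tract within 5 bases of the annotated start, since 28 of the 60 genes do.

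The comparison of APP with WT asks whether the mRNAs that build the cytosolic ribosome differ between the genotypes, and whether the subunits differ together. Ribosomal protein mRNAs read slightly higher in APP, in a narrow band and in both subunits: 79 of the 81 members had a positive log2 fold change. Their median was 0.209, with the middle 50% of genes between 0.146 and 0.269 and all between -0.27 and 0.40. The median over all protein-coding genes was -0.003 and 49.3% of them were positive, against 97.5% of the members. Taken singly, 1 member, Rpl23, passed an adjusted p of 0.05.

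The 81 genes took 0.769% (APP.3) and 0.779% (APP.4) of all counts in the transgenic libraries, and 0.654% (WT.1) and 0.688% (WT.2) in the controls. Both APP libraries therefore stood above both WT libraries, and the WT libraries lay farther apart than the APP libraries. The means were 0.774% ± 0.00708 (SD, n = 2) in APP and 0.671% ± 0.024 (SD, n = 2) in WT, a ratio of 1.15. A permutation of 2 against 2 libraries cannot give a p below 0.333, so no p is given for this share. As CPM (each count divided by the TMM-scaled size of its library, so that libraries of any depth can be compared) the sum was 7588 and 7886 in APP against 6525 and 6913 in WT.

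**Figure D1:**
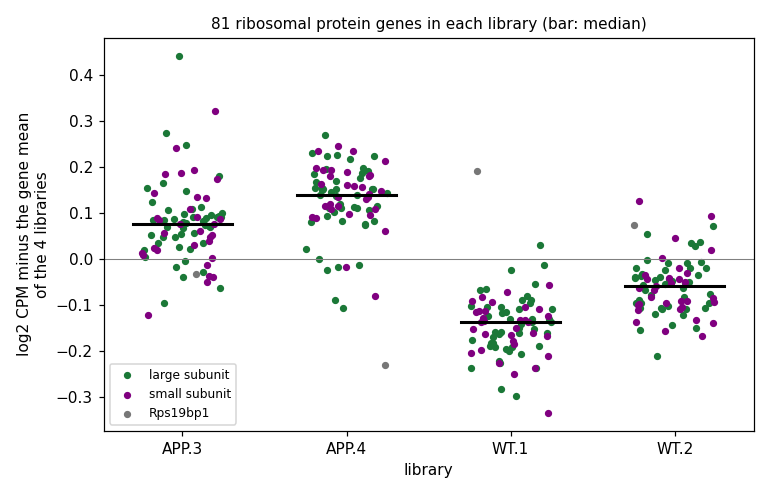
Log2 CPM of each of the 81 genes in each library, minus that gene's mean over the 4 libraries; green points are large subunit genes, purple points small subunit genes, grey Rps19bp1, and black bars the median. The medians were 0.075 and 0.139 in APP.3 and APP.4, and -0.138 and -0.058 in WT.1 and WT.2, and the 2 subunits overlap within every library.

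The spread between mice of one genotype was also shared by the set. WT.1 was lower than WT.2 for 72 of the 81 genes, by a median of 0.072 on the log2 scale, and APP.3 was lower than APP.4 for 59, by a median of 0.068. The difference between genotypes was larger than this in every pairing of libraries, with medians of 0.200 (APP.3 over WT.1), 0.131 (APP.3 over WT.2), 0.295 (APP.4 over WT.1) and 0.215 (APP.4 over WT.2). APP.3 was above WT.2, the closest pair, for 70 of the 81 genes. Because the genes move together between mice, the 81 values are not independent measurements of the genotype.

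In CPM, both APP libraries were above both WT libraries for 65 of the 81 members (80.2%), against 20.9% of all 23595 features tested. Both APP libraries were below both WT libraries for 2 members, Rpl7l1 and Rps19bp1, against 19.8% of all features. An unadjusted p under 0.05 in edgeR's quasi-likelihood test, in the direction of APP, was reached by 44 members, against 6.9% of all features. After Benjamini-Hochberg adjustment over all features 1 member was higher and 0 were lower, against 1.04% and 0.153% of all features, so the count of adjusted calls was near the background. By DESeq2 the counts were 3 higher and 0 lower, against 1.11% and 0.237% of all features, and by edgeR's exact test 7 and 0, against 1.98% and 0.428%. With one library left out the count higher was 44 without APP.3, against 4.18% of all features, and 20 without APP.4, against 2.84%. It was 0 without WT.1, against 0.294%, and 0 without WT.2, against 0.433%. The calls over all features thus rose and fell with the library left out as well. In these fits the mouse left alone in its group is assumed to vary like the others. At an unadjusted p under 0.05, 0 members were lower. With the study's fold change cut-off of 1.5 added, 0 members passed, against 0.886% of all features, and every member's fold was below that cut-off in either direction.

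**Figure D2:**
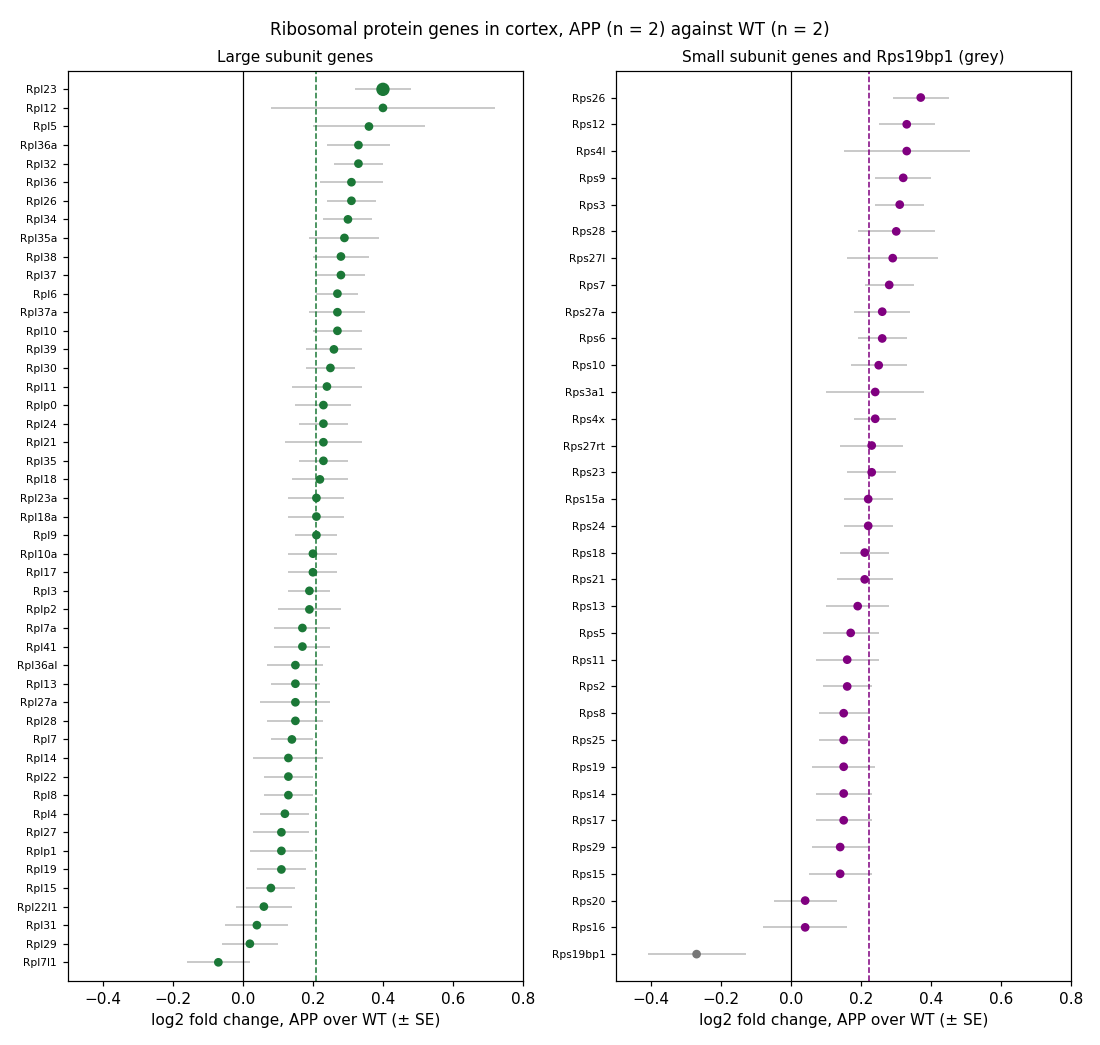
Log2 fold change (APP over WT) of each gene, with its SE from edgeR's quasi-likelihood fit, for the large subunit (left) and the small subunit with Rps19bp1 in grey (right); dashed lines mark the subunit medians of 0.208 and 0.221, and the larger point marks Rpl23, the gene past an adjusted p of 0.05. Points run from -0.27 for Rps19bp1 to 0.40 for Rpl23 and Rpl12, with wide error bars for Rpl12, Rpl5 and Rps4l.

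The large and small subunit mRNAs had similar fold changes. The median log2 fold change was 0.208 over the 48 large subunit genes, 47 of them positive, and 0.221 over the 32 small subunit genes, all positive. Both APP libraries were above both WT libraries for 39 of the 48 and 26 of the 32, which is 81.2% of each. Summed CPM on large subunit genes was 1.52 times that on small subunit genes in both APP libraries, against 1.55 for WT.1 and 1.53 for WT.2. On the log2 scale the ratio decreased by 0.0185 from WT to APP, and it was lower in both APP libraries than in either WT library, and the sign of the difference between subunit medians depended on how the genes were counted.

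Rpl23 (chr11:97777527-97782437, GRCm38, minus strand), whose large subunit protein also binds the p53 regulator Mdm2, had the smallest p of the members. It read 144 CPM in APP.3 and 129 in APP.4, against 101 in WT.1 and 107 in WT.2, from 3786 to 4431 counts. Both APP libraries were above both WT libraries. The log2 fold change was 0.40 ± 0.08 (SE), a fold of 1.32, with an adjusted p of 0.0374. Rpl23 has no near-identical copy among the counted transcripts. It was not called with library totals in place of TMM scaling, nor with either WT library left out, where its log2 fold change was 0.35 (without WT.1) and 0.438 (without WT.2).

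Among small subunit genes the largest value was that of Rps26 (chr10:128624534-128626747, minus strand), whose protein sits where the mRNA leaves the ribosome and which is one of the genes mutated in Diamond-Blackfan anaemia. It read 31.7 and 31.6 CPM in APP against 24.3 and 24.8 in WT, so that the groups were well separated and the libraries of each nearly equal. Its log2 fold change was 0.37 ± 0.08, and its adjusted p was 0.0723. With its near-identical copy added, the adjusted p was 0.0365 and the log2 fold change 0.40. Rps12, a protein of the small subunit head, read 77.5 and 85.7 CPM in APP against 64.0 and 66.1 in WT, with a log2 fold change of 0.33 ± 0.08 and an adjusted p of 0.0853.

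Beside Rpl23, Rpl12 and Rpl5 had the highest values of the large subunit. Rpl12 rested on few counts, and Rpl5 varied between mice of one genotype. Rpl12 read only 29 and 32 counts in APP and 34 and 27 in WT, or 1.0 and 1.03 CPM against 0.773 and 0.762. Its log2 fold change of 0.40 therefore had an SE of 0.32 and an adjusted p of 0.729. Rpl5, which binds 5S rRNA together with Rpl11, read 21.2 and 14.5 CPM in APP against 12.7 and 15.2 in WT, so that APP.4 lay below WT.2. Its log2 fold change was 0.36 ± 0.16. For both genes most counts fell on near-identical copies, which are described further on.

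At the other end, 5 ribosomal protein genes had a log2 fold change that was 0.06 or closer to 0 after rounding to 2 decimals. Rpl29 read 55.9 and 64.7 CPM in APP against 59.2 and 59.4 in WT, Rpl31 read 81.5 and 91.4 against 79.0 and 89.5, and Rps16 read 21.8 and 26.5 against 21.2 and 25.9. In these genes the libraries of one genotype differed more than the genotypes did. Their log2 fold changes were 0.02 ± 0.08, 0.04 ± 0.09 and 0.04 ± 0.12. Rps20, a protein of the small subunit head, was at 0.04 ± 0.09, and its coding row is a transcript of 3706 nucleotides, while a row of 582 nucleotides deposited as a retained intron held 1254 to 1767 counts and had a log2 fold change of 0.16 ± 0.10. Rpl22l1 is the fifth.

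The minor paralogs are genes that can stand in for, or resemble, a standard ribosomal protein, and 6 of the 9 listed were counted. Rpl3l, a muscle form of Rpl3, and Rpl10l and Rpl39l, which are known from testis, were not in the counted coding features. Rpl7l1, a relative of Rpl7 that takes part in making the large subunit, read 28.6 and 26.5 CPM in APP against 28.8 and 28.9 in WT. Its log2 fold change was -0.07 ± 0.09 (adjusted p = 0.859), while Rpl7 read 164 and 167 against 152 and 149, with 0.14 ± 0.06 (adjusted p = 0.462). The groups did not overlap for either gene and the differences had opposite signs, but that of Rpl7l1 was smaller than its SE. Of all features, 20.9% had both APP libraries above both WT libraries and 19.8% had both below.

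Rpl22l1 and Rpl22 are a linked pair, since Rpl22 protein is known to bind Rpl22l1 RNA and to lower it. Rpl22l1 read 34.6 and 32.0 CPM in APP against 32.0 and 31.7 in WT, with a log2 fold change of 0.06 ± 0.08. Rpl22 read 68.9 and 65.0 against 59.6 and 63.0, with 0.13 ± 0.07. Neither passed the test. The coding sequences of the pair were 74.6% identical over 299 aligned bases.

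Rps27 itself was not among the counted transcripts. Rps27rt, a retrogene on chr9:114982366-114982739 (GRCm38, minus strand), has a coding sequence identical to that of Rps27 over all 252 bases, so reads of the pair cannot be told apart by it. Rps27rt read 96.0 and 114 CPM in APP against 89.5 and 89.8 in WT, at a log2 fold change of 0.23 ± 0.09 and an adjusted p of 0.336. Rps27l, a further relative known as a p53 target with 76.5% identity to Rps27 over 226 bases, read 7.33 and 6.86 against 5.84 and 5.75, with 0.29 ± 0.13.

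Of the X-linked genes, Rps4x read 182 and 185 CPM in APP against 154 and 157 in WT, at a log2 fold change of 0.24 ± 0.06 and an adjusted p of 0.138. Its relative Rps4l read 4.08 and 3.67 CPM against 2.93 and 3.24, from 114 to 129 counts, with 0.33 ± 0.18. Rpl36a read 39.4 and 43.2 against 31.6 and 34.2 (0.33 ± 0.09), and its autosomal relative Rpl36al 33.6 and 34.6 against 29.5 and 32.2 (0.15 ± 0.08). In these 4 genes both APP libraries were above both WT libraries. Rpl10, a late-joining large subunit protein, and Rpl39, at the exit tunnel, had log2 fold changes of 0.27 ± 0.07 and 0.26 ± 0.08. All 4 X-linked members, Rpl10, Rpl36a, Rpl39 and Rps4x, reached an unadjusted p under 0.05 in the quasi-likelihood test. In the direction of APP, 54.3% of the 81 members and 6.9% of all features did so. After adjustment 0 of the 4 passed.

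Rps19bp1 stood apart from the ribosomal proteins its symbol places it among. It read 5.84 and 5.09 CPM in APP against 6.82 and 6.29 in WT, so that both APP libraries were below both WT libraries. The log2 fold change was -0.27 ± 0.14 and the adjusted p 0.563.

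The P stalk of the large subunit recruits elongation factors and is made of Rplp0 and dimers of Rplp1 and Rplp2. Rplp0 read 86.5 and 91.1 CPM in APP against 72.1 and 79.0 in WT, with a log2 fold change of 0.23 ± 0.08. Rplp2 read 29.8 and 30.4 against 24.7 and 28.1, with 0.19 ± 0.09. Rplp1 read 133 and 152 against 123 and 140, with 0.11 ± 0.09, and it is the one of the 3 whose groups overlapped. None passed the test.

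The remaining groups by place in the ribosome gave similar medians. The 8 proteins at the exit of the polypeptide tunnel gave a median of 0.205 for the log2 fold change, all positive, and the 14 of the small subunit head one of 0.163, all positive. Of 19 genes linked to Diamond-Blackfan anaemia, an inherited failure of red cell production, 18 were counted, with a median of 0.226 and all positive. Rpl5 and Rpl11 of the 5S particle had a median of 0.297, at 36.1 and 30.2 summed CPM in APP against 25.0 and 28.9 in WT. By the adjusted test 0 genes of these lists were called.

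Levels between genes were compared per length, as CPM per kilobase of the transcript with most counts. The members spanned 0.718 for Rpl12 to 321 for Rps24. By CPM alone, the large subunit genes with the highest levels were Rpl3 (mean 348 CPM), Rpl4 (243) and Rpl9 (222), and the lowest were Rpl12 (0.892), Rpl11 (14.1) and Rpl5 (15.9). The highest small subunit genes were Rps4x (169), Rps23 (169) and Rps2 (168), and the lowest were Rps4l (3.48), Rps27l (6.45) and Rps28 (14.6). Of the highest genes, Rpl3 read 360 and 382 CPM in APP against 323 and 326 in WT (log2 fold change 0.19 ± 0.06), Rpl9 was at 0.21 ± 0.06, Rps23 at 0.23 ± 0.07, Rps2 at 0.16 ± 0.07 and Rpl4 at 0.12 ± 0.07. Rpl11 and Rps28 among the lowest were at 0.24 ± 0.10 and 0.30 ± 0.11.

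Near-identical copies took many of the reads. A copy was defined as another counted transcript at least 90% identical to a member over at least 80% of the shorter of the pair. There were 121 such rows for 46 members, 17 of them deposited as protein coding, and 35 members had none. A further 18 were deposited as miRNA, all of them assigned to Rps16, and matched its counted transcript at 90.3% to 93.3% identity over only 119 to 126 bases, so they are short matches and not copies of the gene. The copies held 15.9% of all counts on members and copies, and for 10 members they held the majority. For Rpl12 the share on copies was 99.2% in 3 libraries and 99.3% in WT.2, for Rpl5 it was 91.5% to 93.6%, and for Rpl11 84.5% to 86.8%. The transcript of Rpl12 that was counted is 1242 nucleotides long, and its copy Gm10275 (chr10:29698746-29699380, GRCm38) is identical to it over 634 aligned bases. Gm15500 (chr7:114705270-114706163) is identical to Rpl5 over 894 bases. The low levels of these genes are therefore levels of rows, and cannot be read as levels of the genes.

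Adding the copies changed the order of genes but not the general size of the difference. The median over members with their copies was 0.205, and Rpl12 with its copies read 124 and 127 CPM in APP against 102 and 115 in WT, with a log2 fold change of 0.21 ± 0.08. Rpl5 with copies read 249 and 226 against 198 and 206 (0.23 ± 0.07), and Rpl11 with copies 95.9 and 110 against 93.3 and 96.4 (0.11 ± 0.08). Rps16 went from 0.04 to -0.07 ± 0.10 with all of its 20 rows added, of which the miRNA rows held 1734 of the 3016 counts. With only its 2 processed pseudogenes added it was at 0.02 ± 0.11. The 35 members with no copy had a median of 0.208 and the 46 with a copy one of 0.216.

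**Figure D3:**
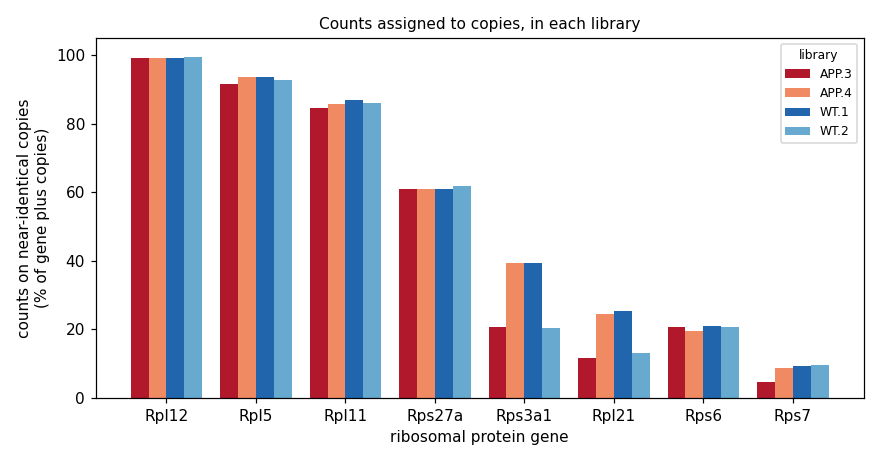
Share of the counts on a gene and its near-identical copies that fell on the copies, as a percentage, for 8 genes in each of the 4 libraries. The shares of Rpl12, Rpl5, Rpl11 and Rps27a are high and alike in all libraries, while those of Rps3a1 and Rpl21 are low in APP.3 and WT.2 and high in APP.4 and WT.1.

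For 33 of the 37 members with at least 100 counts on copies, the share on copies differed by less than 5 percentage points between the libraries. Of the other 4, Rps3a1 (chr3:86137940-86142702, minus strand) and Rpl21 (chr5:146832890-146837032, plus strand) showed a split that crossed the genotypes. The share on copies of Rps3a1 was 20.7% in APP.3 and 20.4% in WT.2, but 39.4% in APP.4 and 39.2% in WT.1. For Rpl21 it was 11.6% and 13.1% in APP.3 and WT.2, but 24.5% and 25.3% in APP.4 and WT.1. Rps7 (4.6% in APP.3, 8.62% to 9.62% in the others) and Rps16 (44.6% to 50.7%) did not split this way. Among the 33 there were smaller splits across the genotypes in both directions. Rpl5, Rps13, Rpl17, Rps2 and Rpl31 had lower shares in APP.3 and WT.2, as Rps3a1 and Rpl21 did. For Rpl5 the share was 91.5% and 92.6% in APP.3 and WT.2, but 93.6% in both APP.4 and WT.1. Rps12, Rps26 and Rps15a had higher shares in APP.3 and WT.2. The share of Rps15a, on 13 to 48 copy counts in a library, was 1.36% and 1.3% there, but 0.337% and 0.298% in APP.4 and WT.1. Rps3a1 and Rpl21 were accordingly among the 3 members with the largest differences between mice of one genotype, with Rpl5.

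The copies differ from their parent genes at few bases, and the windows below show for one copy of each the first differing base inside the coding sequence of the parent, in capitals, in 30 bases of transcript. Rps3a2 (chr14:88123017-88123808, minus strand, a processed pseudogene) has 4 substitutions from Rps3a1 in 792 aligned bases, and Gm10240 (chr15:68309819-68310301, plus strand, a processed pseudogene) has 2 from Rpl21 in 483.
Rps3a1, bases 335 to 364 of the transcript: gaagtgagccttgcTgatctacagaatgat
Rps3a2, aligned bases: gaagtgagccttgcCgatctacagaatgat
Rpl21, bases 616 to 645 of the transcript: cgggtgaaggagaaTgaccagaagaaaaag
Gm10240, aligned bases: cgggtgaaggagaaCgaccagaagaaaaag
Rps3a2 held 762 and 1612 counts in the transgenic pair (APP.3 first) and 1927 and 833 in the control pair (WT.1 first), and Gm10240 held 283 and 679, then 814 and 345. Scaled to library size, Rps3a2 read 26.3 and 52.0 CPM in APP against 43.8 and 23.5 in WT, and Gm10240 read 9.78 and 21.9 against 18.5 and 9.73. Both were lower in APP.3 and WT.2 than in APP.4 and WT.1, as the shares were.

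Summing a gene with its copies removed most of that spread. Rps3a1 alone read 205 and 155 CPM in APP against 130 and 175 in WT, with APP.4 below WT.2, and its log2 fold change was 0.24 ± 0.14. With its 3 copies it read 258 and 256 against 214 and 220, with no overlap between the groups, and the value was 0.24 ± 0.06 (adjusted p = 0.125). Rpl21 alone read 215 and 179 CPM in APP against 149 and 188 in WT (0.23 ± 0.11), and with its 8 copies 243 and 237 against 199 and 217 (0.20 ± 0.07, adjusted p = 0.251). The fold changes were thus nearly the same and the errors smaller. What split the copies was not tested.

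Some members had coding transcripts that did not move alike. The transcript of Rpl22 of 474 nucleotides had a log2 fold change of 0.26 ± 0.10 and that of 2051 nucleotides -0.02 ± 0.11. For Rpl15, another protein of the large subunit, the values were 0.17 ± 0.08 for 883 nucleotides and -0.05 ± 0.10 for 1922. The ratio of long to short Rpl22 counts was 0.923 and 0.679 in APP and 1.06 and 0.877 in WT, and that of Rpl15 0.841 and 0.644 against 0.844 and 0.883. The Rpl22 ratios overlapped between the genotypes, and for Rpl15 APP.3 and WT.1 were nearly equal. The difference between long and short transcripts was not tested. Transcripts of 45 members deposited as other than protein coding, retained introns among them, gave 0.086 as their median log2 fold change, 28 of the 45 being positive and 0 called. The median over all 8208 non-coding features was 0.028.

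Ribosomal proteins that the symbol pattern leaves out read in the same direction. Rpsa, also known as a laminin receptor, read 216 and 227 CPM in APP against 190 and 196 in WT, with a log2 fold change of 0.20 ± 0.06. Fau, which encodes eS30 fused to a ubiquitin-like protein, read 62.6 and 70.6 against 56.6 and 56.4 (0.24 ± 0.08), and in both genes the groups did not overlap. Rack1, a signalling scaffold on the small subunit, read 89.6 and 93.8 against 85.0 and 91.0 (0.06 ± 0.07). Rpsa, Fau and Rack1 did not pass the test.

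The medians of other gene lists of the translation pathway were closer to the level of WT. Among 16 other TOP mRNAs, 14 were positive with a median of 0.095 and 0 passed the test. Both APP libraries were above both WT libraries for 9 of the 16 (56.2%) and below for 0, against 20.9% and 19.8% of all features. The 16 fold changes ran from -0.06 for Nap1l1 to 0.25 for Npm1, with Eef1a1, the most abundant elongation factor mRNA, at 0.22 ± 0.06 and Eef2 at -0.01 ± 0.06. The 26 initiation and elongation factors had a median of -0.011, with 12 positive, and the 23 ribosome biogenesis genes one of -0.024, with 9 positive. Of 13 genes of mTORC1 and its TOP regulators 8 were positive, with a median of 0.013, Mtor at -0.11 ± 0.06 and Larp1 at 0.09 ± 0.08. The 13 fold changes ran from -0.19 to 0.67, a wider range than that of the TOP list. Both APP libraries were above both WT libraries for 4 of the 13 (30.8%) and below for 3. Of 6 non-coding hosts of small nucleolar RNAs, transcripts that also begin with a TOP tract, 4 were counted, with a median of 0.076 and Gas5 highest at 0.23 ± 0.07. By the adjusted test 0 genes of these 4 lists were called.

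The 77 mitochondrial ribosomal proteins, which build the ribosome of the organelle, are the set most like the cytosolic one in kind. Their median log2 fold change was -0.038 and 31 were positive. Both APP libraries were above both WT libraries for 8 of them (10.4%) and below for 13, and 0 were called. Transcript length was one property that differed between the members and most genes: the 964 other coding genes counted on a transcript under 1000 nucleotides had a median of 0.041, with 58.1% positive and 25.1% with both APP libraries above both WT libraries. Scaling the libraries on those short transcripts lowered the median of the members to 0.182.

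**Figure D4:**
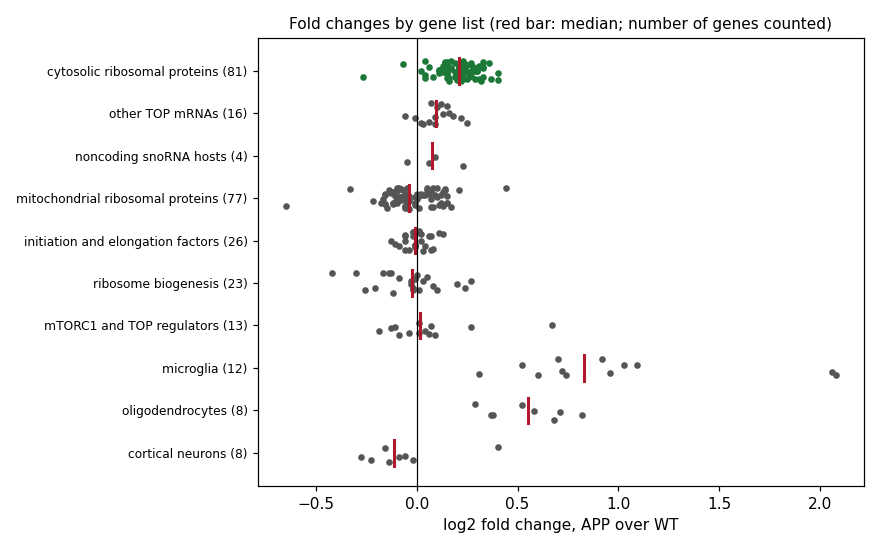
Log2 fold change (APP over WT) of each gene in 10 lists, with a red bar at each list's median and the number of genes counted in brackets. Cytosolic ribosomal proteins lie in a narrow band around 0.209, mitochondrial ribosomal proteins and translation factors around 0, and the microglial and oligodendrocyte marker lists at 0.831 and 0.550.

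Cell type markers and the transgenes were measured in the same libraries. Counts on App were 2690 and 2380 CPM in APP against 856 and 905 in WT, so each library matched its label. All 12 microglial markers were positive (median 0.831, 9 called), with summed CPM of 457 and 557 in APP against 279 and 277 in WT, and all 8 oligodendrocyte markers were positive (median 0.550, 3 called), with 1550 and 1348 against 991 and 1114. All 8 astrocyte markers were positive (median 0.195, 2 called), with 4691 and 5031 against 4196 and 3820. The 8 neuronal markers had a median of -0.114, with 4383 and 3448 against 4018 and 3968. Endothelial, blood and choroid plexus markers had medians of -0.072, -0.239 and -0.124, with 0 called. All 4 hypothalamic markers counted were positive (median 5.168, 3 called), at low levels. They summed to 3.63 and 5.58 CPM in APP against 0.25 and 0.169 in WT, where Avp, Oxt and Sim1 each had 0 counts in 1 library. The glial and hypothalamic markers moved with the genotype as the ribosomal protein mRNAs did, and their part in the ribosomal protein difference was not tested. In whole tissue, more cells of a type and more RNA per cell cannot be told apart.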

How the data were processed

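Total RNA of cortex was sequenced in 4 libraries. Per the study's methods, ribosomal RNA was depleted, strand-specific libraries were read as 100 bp pairs, pairs mapping to ribosomal RNA were discarded, and the rest were aligned with FANSe2 to Ensembl mouse RNA. The authors deposited raw read counts per transcript, without normalization. The submitters' processing notes list CASAVA 1.8, edgeR and the build hg19, although the identifiers are mouse. The authors' comparison columns hold log2 fold changes, log2 mean CPM, p-values and FDR and were not used, nor were 4 further columns of values per library.

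Counts were summed per GENCODE M21 gene (GRCm38), with rows deposited as protein coding and other rows kept as separate features. The identifiers covered 98.2% of the 37539 rows. APP was compared with WT by edgeR's quasi-likelihood test (edgeR 4.0.16, limma 3.58.1, R 4.3.3) with TMM normalization, no covariate, at least 10 counts in all and Benjamini-Hochberg adjustment over 23595 features. The p-values rest on the spread between 2 mice per group, which the fit estimates partly from all features, not from each gene alone. All CPM use TMM library sizes. Copies were found with blastn 2.17.0, and tables and figures were made in Python 3.11.15 with pandas 2.3.3, numpy 2.4.6 and matplotlib 3.10.9. The WT columns were matched to their samples by number and the APP columns to their group. DESeq2 1.42.0, other edgeR tests, scalings, filters, ways of summing rows and leaving out each library were tried. The test was checked on simulated counts.

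The members, the gene lists and the tests were chosen with earlier results of these data known. Named genes were the minor paralogs with their parents and Rps19bp1, the members called, the 3 highest and 3 lowest of each subunit by fold change and by CPM, the 3 with the largest difference within a group, the P stalk, and Rpsa, Fau and Rack1. Another gene that this rule names was left out of the text. Transcripts of Rpl22, Rpl15 and Rps20, Rps24, the copies, the members named for their share on copies and the examples from other lists were named after their values were seen. The reads carry no molecular identifiers.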

Additional observations from a re-analysis of the deposited data

How the results depend on the processing

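The median log2 fold change of the members was positive under every alternative run, from 0.164 to 0.244, and the ratio of shares of counts ran from 1.126 to 1.184. The number of members called did change. It was 1 in the comparison reported, 3 by DESeq2, 7 by edgeR's likelihood ratio test, 7 by its exact test, 0 with library totals, 2 with named pseudogenes added, 2 with near-identical copies added and 2 with those copies but without miRNA rows, the last pair chosen after the data had been seen. The share of all features called higher was, in the same order, 1.04%, 1.11%, 2.14%, 1.98%, 1.08%, 1.05%, 1.12% and 1.09%. Leaving out a library in turn, also chosen afterwards for the calls, gave 0 to 44 members, where 0.294% to 4.18% of all features were called higher. Past both cut-offs the fits gave 0 to 1 members. The share of all features past both was not counted for them, so that number has no background to be read against. The small subunit median ran from 0.16 to 0.254 when a library was left out.

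The difference between subunit medians, large minus small, was -0.012. It was 0.004 on single transcripts, 0.002 when the list held only ribosomal proteins, and -0.02 to 0.02 with a library left out.

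Genes near 0 changed sign. Rpl29 was at -0.0032 with scaling on short transcripts and Rps16 at -0.0701 with copies added, most of them the short miRNA rows. With a library left out the lowest values were -0.0853 for Rpl29, -0.0551 for Rpl31, -0.103 for Rps16, -0.0268 for Rps20 and -0.0016 for Rpl22l1, and the highest were 0.119, 0.13, 0.189, 0.106 and 0.118 in the same order. The cause of these changes was not tested. No features were removed by the count filter, so leaving it out gave identical values.

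No paired analysis was possible because the APP and WT columns share no replicate number, and the numbers on the APP columns differ from those in the APP sample titles.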
